A study of Oryza sativa with 6 samples.

Results

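Cytokinin is a plant hormone whose active pool is set by its release and its breakdown, and 6 rice genes of these steps and of the response that follows are described here in water-stressed roots. They are OsCKX1 (LOC_Os01g09260) and OsCKX2 (LOC_Os01g10110), which encode cytokinin oxidases, LOGL3 (LOC_Os03g01880), which encodes a cytokinin-activating enzyme, the type-A response regulator OsRR10 (LOC_Os12g04500), and the type-B response regulators OsRR22 (LOC_Os06g08440) and OsRR24 (LOC_Os02g08500). Members were taken by locus name from the deposited tables of gene values, in which each of the 6 loci is named by 1 entry that names no other locus, out of 63985 entries in all and 58337 that name a locus. RNA-Seq was run on roots of 4-week-old, soil-grown japonica rice (Oryza sativa), of the cultivar Chilbo by the study's methods. The groups were plants with irrigation withheld for 2 d (WD2d), plants with irrigation withheld for 3 d (WD3d), and plants watered throughout (Control), where WD stands for water deficiency. The 6 libraries fall 2 to a group, and no mutant or transgene is named for them. The methods describe pots of several plants, but the labels do not say which plants or pots a library came from. Neither the labels nor the methods give the day on which the Control roots for RNA-Seq were taken. Harvest day may thus differ between Control and a WD group.

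The tables give 1 pooled value per group and entry, in FPKM (fragments counted on an entry, scaled to its transcript length and to all mapped fragments). Every level below is therefore the authors' pooled value of a group, with no spread over libraries. The authors' own test columns were not used, so no difference was tested here. The depth is not in these tables either, and no interval can be set on a value. A ratio was formed only where an entry had at least 1 FPKM in a group and was above 0 in both, and it is called past the fold limit when its log2 value is at least 1 in size, a 2-fold difference. Because roots were sampled in bulk, fewer cells of a type and less RNA per cell cannot be told apart.

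Marker loci of root and green shoot were looked at first, as a limited check of the labels of tissue and gene. Of 5 root marker loci, 2 were at 1 FPKM or more, with sums over the list of 15.8 FPKM in WD2d, 11.7 in WD3d and 928 in Control. Nearly all of the Control sum came from the silicon transporter locus LOC_Os03g01700, while LOC_Os02g51110, a silicon channel of the root, was listed at 0 in every group. Of 5 green-shoot loci, 2 were at 1 FPKM or more and 2, including a Rubisco small subunit locus, were at 0 in every group, and the list summed to 14.4, 17.8 and 9.86 FPKM in WD2d, WD3d and Control. The part that these markers have in the results below was not tested.

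Some locus names in the tables are doubtful. Along each of the 12 chromosomes a change point was sought, a position past which more entries carry a locus name that a further entry carries too, and only this direction was allowed. A contrast on every chromosome was thus largely built in. It was sharpest on chromosome 2, where shared names made up 2.65% of expressed named entries before the change point and 45.4% after it, and weakest on chromosomes 9 and 11, with 22.9% and 20.2% before it and 45.6% and 37.8% after it. For the other chromosomes with a member, the shares ran between 6.87% and 10.9% before it and between 38.0% and 41.8% after it. All 6 members are on the side before their change point, at distances of 1513 kb for OsRR24, 3216 kb for OsRR10, 4379 kb for LOGL3, 4872 kb for OsCKX2, 5448 kb for OsCKX1 and 6965 kb for OsRR22. Within 250 kb of each member, between 1 and 5 of the 32 to 50 expressed entries shared a locus name. Of the rest of the cytokinin pathway treated further on, 1 locus lies before a change point and 50 lie after one, where it is uncertain that the reads of an entry belong to the locus it names. The same doubt holds for all green-shoot marker loci and for the root marker loci other than LOC_Os03g01700 and LOC_Os02g02170. These also lie after a change point, so their values are no sure check of tissue. Where the reads of such entries came from was not analysed here.

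Cytokinins are made as nucleotides by isopentenyltransferases (IPT), some are hydroxylated by CYP735A enzymes, and LOG enzymes release the active free base from the nucleotide. Cytokinin oxidase/dehydrogenases (CKX) then cleave the hormone irreversibly. The signal runs from histidine kinase receptors through phosphotransfer proteins to the response regulators in the nucleus, where type-B members are transcription factors that switch on target genes, among them the type-A members, which feed back to dampen the response. In roots, cytokinin is known for limiting meristem size and the formation of lateral roots, and a strong CKX activity gives larger root systems.

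Of the 4 members with at least 1 FPKM in a group, LOGL3 was higher under WD, OsRR24 was lower, OsRR22 stayed close to its Control level, and OsRR10 was near Control in WD2d and lower in WD3d. Both CKX members were under 1 FPKM in every group. After 2 d, 1 of 4 members (LOGL3) was past the fold limit upward and 1 of 4 (OsRR24) downward, where 15.0% of the 22412 entries compared were past it upward and 24.6% downward. After 3 d the same counts held for the same genes, against 20.1% upward and 28.3% downward of 22312 entries. Between WD3d and WD2d no member was past the limit, against 4.57% upward and 9.78% downward of 20442 entries. With 4 genes, such counts do not set the members apart from the background.

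**Figure D1:**
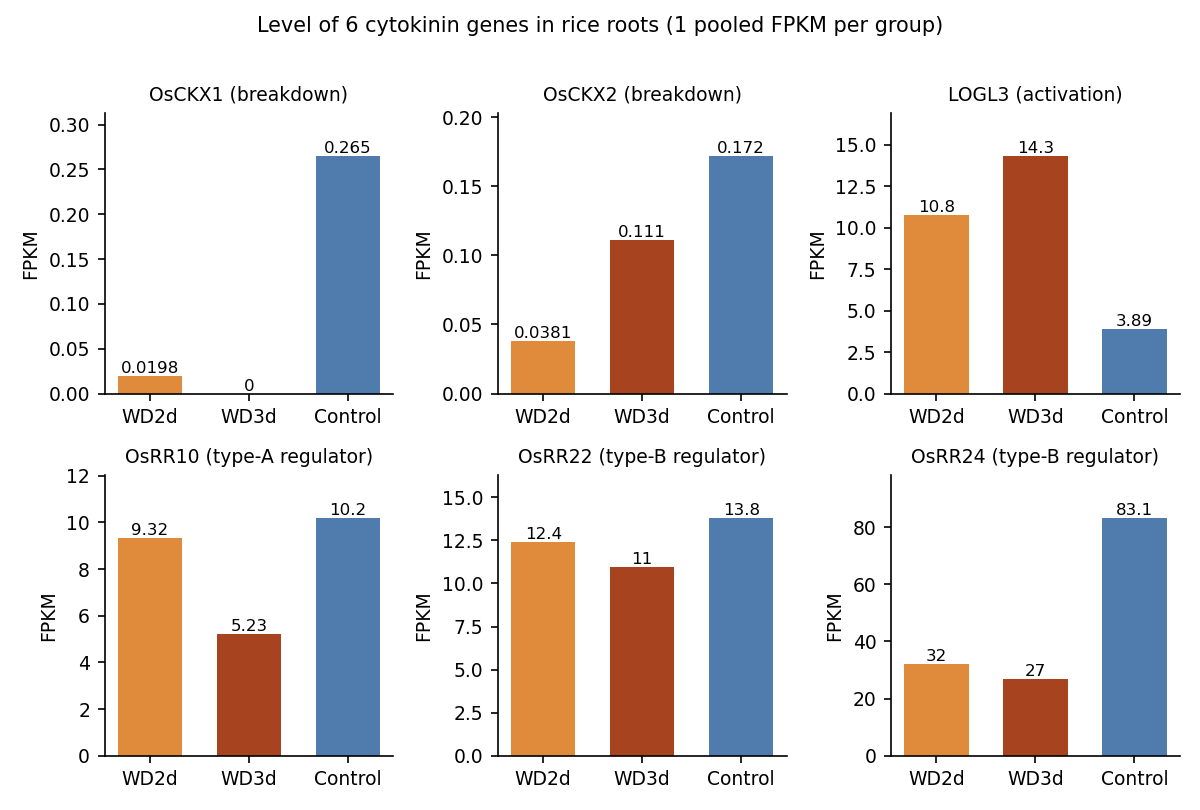
Pooled FPKM of the 6 genes, 1 panel per gene with its own vertical axis from 0, in WD2d, WD3d and Control from left to right. Each bar is 1 pooled value of a group, so there are no error bars. LOGL3 is at 10.8, 14.3 and 3.89 FPKM and OsRR24 at 32.0, 27.0 and 83.1 FPKM, while the axes of the OsCKX1 and OsCKX2 panels end below 1 FPKM.

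The activating gene was the one member above its Control level. LOGL3, a LONELY GUY-like phosphoribohydrolase that frees active cytokinin from its nucleotide, is listed on chromosome 3 from 536348 to 542771. It was at 10.8 FPKM in WD2d, 14.3 FPKM in WD3d and 3.89 FPKM in Control. Its log2 ratio was 1.47 for WD2d over Control, a 2.77-fold higher level, and 1.88 for WD3d over Control, a 3.69-fold higher level. Of all entries compared, 90.8% had a lower ratio after 2 d and 91.2% after 3 d, so about 1 entry in 10 was as far up or further. The level itself moved through the middle of the expressed entries. In WD2d 57.2% of the entries of at least 1 FPKM were below LOGL3, in WD3d 63.3%, and in Control 31.3%. Between the WD groups the log2 ratio of WD3d over WD2d was 0.41, a 1.33-fold higher level in WD3d that was within the fold limit.

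Both genes of breakdown were close to the bottom of the scale. OsCKX1 is listed on chromosome 1 from 4697313 to 4699792. Its values were 0.0198 FPKM in WD2d, 0 in WD3d and 0.265 FPKM in Control. OsCKX2, on chromosome 1 from 5270102 to 5275678, is the rice gene known as Gn1a, where reduced function raises the number of grains on a panicle. It was at 0.0381 FPKM in WD2d, 0.111 FPKM in WD3d and 0.172 FPKM in Control. The sums of both were 0.0579 FPKM in WD2d, 0.111 FPKM in WD3d and 0.437 FPKM in Control. The Control value was the highest of the 3 groups for each gene, yet all 6 values lie under the limit of 1 FPKM, and in all 3 comparisons the authors' tables mark both genes as having too few alignments to test. No ratio is given for them, and a difference was not detectable at these levels.

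The type-B regulators, the transcription factors of the response, differed from each other. OsRR24, which in rice is known for a part in meiosis of the pollen mother cells, is listed on chromosome 2 from 4573805 to 4578561. It was at 32.0 FPKM in WD2d, 27.0 FPKM in WD3d and 83.1 FPKM in Control. Both WD values lie far below the Control value, with log2 ratios of -1.37 after 2 d and -1.62 after 3 d, which leave 0.386 and 0.325 of the Control level. Of all entries compared, 19.6% were further down after 2 d and 20.8% after 3 d, so ratios of this size were frequent in these roots. OsRR24 was still the highest of the 6 genes in each group. It was above 83.0% of the expressed entries in WD2d, 77.9% in WD3d and 95.6% in Control. The log2 ratio of WD3d over WD2d was -0.25.

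OsRR22 is the type-B gene whose loss gives the salt-tolerant rice mutant hst1. It is listed on chromosome 6 from 4136275 to 4142663. Its level was 12.4 FPKM in WD2d, 11.0 FPKM in WD3d and 13.8 FPKM in Control. The log2 ratios were -0.15 after 2 d, -0.33 after 3 d and -0.18 for WD3d over WD2d. These values lie near the middle of all entries, of which 45.0% had a lower ratio after 2 d and 41.4% after 3 d. Whether OsRR22 differed between the groups was not tested here.

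The type-A member was the one whose level was nearly the same in WD2d and Control and lower in WD3d. OsRR10, a response regulator without the DNA-binding output domain of the type-B proteins, is listed on chromosome 12 from 1914572 to 1920669. It was at 9.32 FPKM in WD2d, 5.23 FPKM in WD3d and 10.2 FPKM in Control. Its WD2d over Control log2 ratio was -0.13 and its WD3d over Control ratio -0.96, just inside the fold limit. For WD3d over WD2d it was -0.83, and only 12.4% of the entries compared were further down between the stressed groups. FPKM are by definition relative to all fragments, but how the libraries were scaled for these values is not known. The ratios were also rescaled to the sum of all entries but the 2 of the highest FPKM. Those 2 hold 73.9% of the summed FPKM in WD2d, 69.0% in WD3d and 76.6% in Control. With this rescaling the 3 d ratio of OsRR10 was -1.15 and past the limit. Without it, the median 3 d log2 ratio of all entries was -0.01, so whether the rescaling is called for was not tested. OsRR10 has a near-identical paralog on chromosome 11, OsRR9 (LOC_Os11g04720), listed at 0 in WD2d, at 0 in WD3d and at 0.0523 FPKM in Control. The OsRR9 entry lies after a change point, so it is uncertain that these values are those of OsRR9. Reads common to both could be assigned to either, so the level of OsRR10 is uncertain to that extent.

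**Figure D2:**
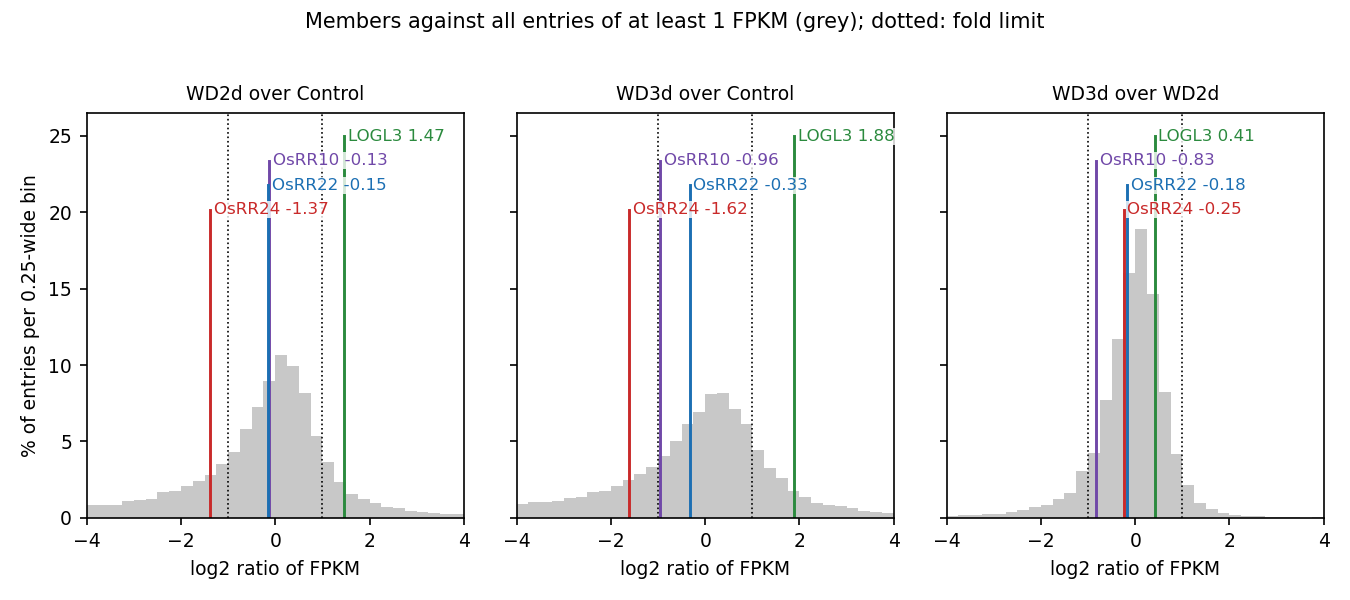
Log2 ratios of FPKM of the 4 members of at least 1 FPKM (coloured lines, value beside each name) over the distribution of all entries compared (grey, percent of entries per bin), for WD2d over Control, WD3d over Control and WD3d over WD2d. The height of a line has no meaning, dotted lines mark the fold limit, and the horizontal axis ends at 4 on either side, so entries beyond it are not drawn. LOGL3 lies right of the limit and OsRR24 left of it in both comparisons with Control, and all 4 lie inside it in the right panel.

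The timing of the differences was unlike between the genes. In FPKM, the WD2d minus Control difference of OsRR24 was -51.1 and the WD3d minus WD2d difference -5.04, so that 84.8% of its 3 d log2 ratio was present after 2 d. For LOGL3 the WD2d value was 6.87 FPKM above Control and the WD3d value 3.56 FPKM above that, with 78.1% of the log2 ratio present after 2 d. OsRR10 had the reverse course, with a difference of -0.868 FPKM for WD2d minus Control and of -4.08 FPKM for WD3d minus WD2d, and 13.4% of the log2 ratio present after 2 d. OsRR22 lay between them with 46.4%, of a small difference. The ratios at both times share the Control libraries, whose harvest day is not given, and the WD groups were not followed in the same plants.

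The order of the levels differed between stressed and watered roots. In WD2d it was OsRR24, OsRR22, LOGL3, OsRR10, OsCKX2 and OsCKX1 from high to low, and in WD3d LOGL3 stood second, above OsRR22. In Control it was OsRR24, OsRR22, OsRR10, LOGL3, OsCKX1 and OsCKX2. Since no value has a spread, neighbours such as OsRR22, LOGL3 and OsRR10 in WD2d, at 12.4, 10.8 and 9.32 FPKM, cannot be told apart. OsRR24 was 2.59 times the OsRR22 level in WD2d, 2.46 times in WD3d and 6.02 times in Control. It was 2.98 times the LOGL3 level in WD2d, 1.89 times in WD3d and 21.4 times in Control. LOGL3 and OsRR24 thus lay much closer together in both stressed groups. Neither stands for its whole role in the pathway list given further on. There, LOGL8 (LOC_Os05g51390) was above LOGL3 in each group. The type-B locus LOC_Os01g67770 was above OsRR24 in WD3d, at 44.7 against 27.0 FPKM, and below it in WD2d and Control.

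Among the 3 response regulators that are members, the balance of types differed between groups as well. It does not stand for all regulators of either type, since others of the pathway list, given further on, are left out. Of these, the larger entry of the type-A gene OsRR3 (LOC_Os02g58350) was above OsRR10 in each group. The type-B pair summed to 44.4 FPKM in WD2d, 38.0 FPKM in WD3d and 96.9 FPKM in Control, and OsRR24 gave 72.1%, 71.1% and 85.8% of that sum in the same order of groups. That pair was 4.77 times the type-A OsRR10 level in WD2d, 7.25 times in WD3d and 9.51 times in Control. OsRR22 alone was 1.33 times the OsRR10 level in WD2d, 2.09 times in WD3d and 1.35 times in Control. All 3 regulators together were at 53.8 FPKM in WD2d, 43.2 FPKM in WD3d and 107 FPKM in Control.

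Many other entries followed the same course as a member. Likeness was measured as the distance between the pairs of log2 ratios after 2 d and 3 d, over 3 groups, among entries naming 1 locus with a Control level within 2-fold of the member's. Of 5061 entries compared with LOGL3, 53 lay within a distance of 0.25, the nearest being LOC_Os08g44840 at 0.034 and LOC_Os12g15520 at 0.045. For OsRR24 the nearest of 1444 entries were LOC_Os12g05050 at 0.0074 and LOC_Os12g02150 at 0.033, and 32 lay within 0.25. OsRR10 had LOC_Os01g66780 at 0.026 and LOC_Os04g50980 at 0.059, with 60 of 5362 within 0.25. The flat course of OsRR22 was the least particular, with 320 of 5234 entries within 0.25 and LOC_Os02g04440 at 0.0056 and LOC_Os05g44270 at 0.015 as the nearest. The neighbours of OsRR24 and LOC_Os02g04440 lie before a change point and the others after one.

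The wider pathway list held 58 loci of cytokinin synthesis, activation, breakdown and signalling, the 6 members included. Without the members it held 52 loci, of which 51 had an entry, with 60 entries in all and 27 at 1 FPKM or more. Those 27 came from 22 loci, and a locus with 2 such entries was counted as 2 entries. Of the entries with a ratio, 4 of 26 were past the fold limit upward after 2 d and 10 downward, against 15.0% upward and 24.6% downward of all entries. After 3 d, 7 of 27 were past it upward and 12 downward, against 20.1% and 28.3%. The median log2 ratios were -0.67 and -0.77, where those of all entries were -0.02 and -0.01. Between WD3d and WD2d, 1 of 25 was past the limit upward and 3 downward, against 4.57% and 9.78%, so these counts and the upward count after 2 d were close to the shares of all entries. Of the 60 entries, 1 lies before a change point and the others lie after one, so the values below carry the doubt about locus names given above.

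Among the entries of synthesis, 2 of 3 IPT entries with a ratio were past the limit downward at both times and none upward, where 24.6% of all entries were past it downward after 2 d and 28.3% after 3 d. The third, LOC_Os07g11050, was inside the limit, with log2 ratios of -0.51 and -0.42. LOC_Os05g47840, the highest of them, was at 10.1 FPKM in WD2d, 5.32 FPKM in WD3d and 39.3 FPKM in Control, and LOC_Os06g51350, whose entry names a further locus, was at 2.79, 1.75 and 6.15 FPKM in WD2d, WD3d and Control. The 1 CYP735A entry with a ratio, LOC_Os08g33300, was at 4.59 FPKM in WD2d, 3.95 FPKM in WD3d and 29.6 FPKM in Control, with log2 ratios of -2.69 and -2.91.

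Activation entries lay on both sides. Besides LOGL3, 6 LOG entries had a ratio. After 3 d, 1 was past the limit upward and 3 downward, against 20.1% and 28.3% of all entries. LOGL6 (LOC_Os04g43840) was higher, at 26.2 FPKM in WD2d, 33.4 FPKM in WD3d and 1.92 FPKM in Control, a log2 ratio of 4.12 after 3 d. LOC_Os02g41770, also of the LOG list, has 2 entries, and both were lower, the larger at 2.14 FPKM in WD2d, 2.38 FPKM in WD3d and 29.0 FPKM in Control. The third downward entry was LOGL5 (LOC_Os03g64070), at 0.812 FPKM in WD3d and 2.79 FPKM in Control, a log2 ratio of -1.78. LOGL8 (LOC_Os05g51390) had the highest level of the LOG list, at 128 FPKM in WD2d, 118 FPKM in WD3d and 79.6 FPKM in Control, within the fold limit.

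Of breakdown, 3 CKX entries of 2 loci had a ratio, none of them of a member. Downward, 1 of 3 was past the limit after 2 d and 2 of 3 after 3 d, against 24.6% and 28.3% of all entries, and none was past it upward. OsCKX11 (LOC_Os08g35860) was at 0.153 FPKM in WD3d and 10.6 FPKM in Control, with log2 ratios of -2.34 after 2 d and -6.12 after 3 d. OsCKX3 (LOC_Os10g34230) was at 5.78 FPKM in WD2d, 3.65 FPKM in WD3d and 11.0 FPKM in Control, with log2 ratios of -0.93 and -1.59, and its smaller entry was inside the limit at both times, with -0.91 and -0.91.

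In signalling, the only receptor locus with a ratio was LOC_Os03g50860, a histidine kinase with 2 entries, both past the limit downward at both times. Of all entries, 24.6% were past it downward after 2 d and 28.3% after 3 d. Its larger entry was at 23.3 FPKM in WD2d, 19.3 FPKM in WD3d and 65.5 FPKM in Control, log2 ratios of -1.49 and -1.76. Among 5 phosphotransfer entries with a ratio after 3 d, 2 were past the limit upward and 1 downward, against 20.1% and 28.3% of all entries. OsPHP1 (LOC_Os01g54050, whose entry names a further locus) had the highest level of this role, at 37.0 FPKM in WD2d, 37.8 FPKM in WD3d and 46.9 FPKM in Control. OsPHP2 (LOC_Os05g09410), a pseudo-phosphotransfer protein of the type that lacks the phosphate-accepting histidine, is the 1 entry before a change point. It was at 2.16 FPKM in WD2d, 3.72 FPKM in WD3d and 0.422 FPKM in Control, log2 ratios of 2.35 and 3.14, and its entry names a further locus. The other upward entry after 3 d was the smaller of 2 that name LOC_Os05g44570. It was at 1.91 FPKM in WD3d and 0.936 FPKM in Control, a log2 ratio of 1.03. The larger, at 9.57 FPKM in WD3d and 7.08 FPKM in Control, was inside the limit with 0.43. OsAHP2 (LOC_Os09g39400), a phosphotransfer protein, was the entry past the limit downward, at 0.206 FPKM in WD2d, 0.101 FPKM in WD3d and 1.76 FPKM in Control, log2 ratios of -3.09 and -4.12. OsPHP2 and OsAHP2 stayed under 4 FPKM in every group, below the level asked of named entries, and were chosen for mention after their values were seen. The LOC_Os05g44570 entries were also added after their values were seen.

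The other response regulators lay on both sides of Control. Type-A entries other than OsRR10 numbered 5 with a ratio, 2 of them past the limit upward and 1 downward at both times. Of all entries, 15.0% were past it upward and 24.6% downward after 2 d, and 20.1% and 28.3% after 3 d. Both upward entries name LOC_Os02g58350 (OsRR3), the larger at 84.8 FPKM in WD2d, 149 FPKM in WD3d and 27.4 FPKM in Control, while OsRR5 (LOC_Os04g44280) was at 4.03 FPKM in WD2d, 1.58 FPKM in WD3d and 12.8 FPKM in Control. Of the type-B list, 2 entries other than the members had a ratio, and both were past the limit upward after 3 d and inside it after 2 d. The same shares of all entries apply to them. LOC_Os01g67770 was at 31.3 FPKM in WD2d, 44.7 FPKM in WD3d and 16.4 FPKM in Control, and OsRR21 (LOC_Os03g12350) at 2.37 FPKM in WD2d, 4.44 FPKM in WD3d and 2.12 FPKM in Control. OsRR24 was therefore the only expressed type-B entry of the list past the limit downward.

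**Figure D3:**
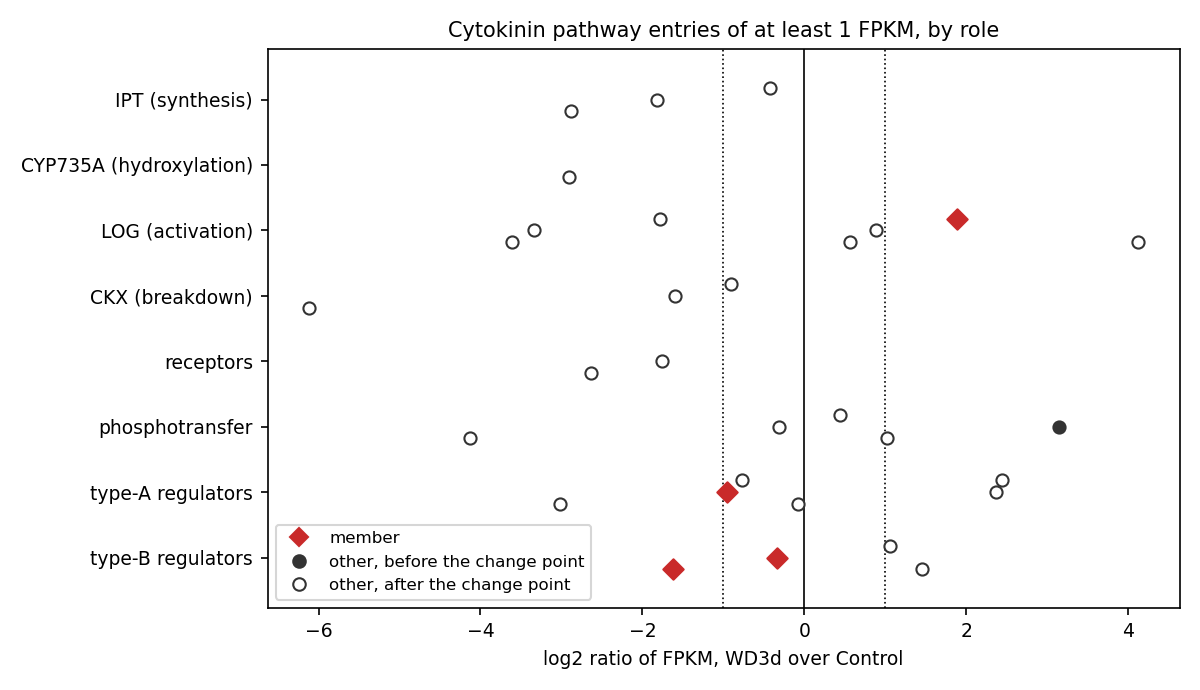
Log2 ratio of FPKM, WD3d over Control, for every pathway entry of at least 1 FPKM in a group, by role. Red diamonds are members, filled circles other entries before a change point and open circles other entries after one, with dotted lines at the fold limit. The vertical offset within a role only separates the points. The IPT, CYP735A, CKX and receptor points all lie left of 0, while LOGL3 at 1.88 lies among LOG entries that reach from -3.61 to 4.12, and OsRR24 at -1.62 stands left of the other type-B points.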

How the data were processed

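RNA from roots was sequenced by the authors as paired-end Illumina libraries. By the study's methods, reads were trimmed with Cutadapt and Trim Galore and mapped with TopHat to IRGSP 1.0. Genes were taken from the RGAP annotation. Cuffdiff then gave the deposited FPKM, 1 pooled value per group and entry. Tool versions, strand handling and library scaling were not given in the sources used here. Coordinates are printed as the tables list them. Entries on chromosome 1 run to 45018339, while the last that names a locus ends at 43269015. It is thus uncertain that the listed coordinates and the locus names belong to the same genome build, or to the one the methods name. This was not tested. The tables also hold the authors' fold changes, test statistics, p-values, q-values and significance marks for each comparison, none of which were used, except that their mark for too few alignments is cited. No column gives a single library. Depth per library is thus unknown.

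Log2 ratios were formed from the FPKM without a pseudocount, with Python 3.11.15, pandas 2.3.3 and numpy 2.4.6. Control values occur in both tables and 0 differ. An entry counted as expressed at 1 FPKM or more. The scripts were tested on simulated data. The pathway entries named are those past the fold limit with at least 4 FPKM in a group, up to 3 per role and direction, with the highest entry per role and paralogs of a member. OsPHP2, OsAHP2, both LOC_Os05g44570 entries, LOGL5, the third IPT entry and the smaller OsCKX3 entry fall outside this rule and were added after their values were seen. Members and lists were chosen with earlier results of these data known. Gene names on the same chromosome in RefSeq (assembly ASM3414082v1) were found for 35 of 54 named list loci, all 6 members included. Alternatives were other pseudocounts, filters, fold limits and scalings.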

Additional observations from a re-analysis of the deposited data

How the results depend on the processing

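Of 94 member ratios recomputed under the alternatives, 93 kept their side of the fold limit and moved by under 1.5-fold, 0 changed sign, and 1 (OsRR10 after 3 d, -1.15 with the scaling that leaves out the 2 highest entries) crossed the limit. Many of these could not move. Settings that only filter entries or sum them per locus leave the ratio of a member with 1 entry as it was. Only the pseudocounts, the centring on the median and the scaling could change a ratio. The counts of members depend more on the settings, since single genes decide them. With over 4 FPKM required in both groups, 0 members were past the limit upward after 2 d and 0 after 3 d, because LOGL3 in Control is under that level. With a log2 limit of 2 there were 0 upward and 0 downward at both times. With a limit of 0.5 there were 2 downward after 3 d, and 1 downward for WD3d over WD2d. With no filter, 3 members were downward after 2 d, and 1 upward for WD3d over WD2d, since the CKX genes then entered. The scaling without the 2 highest entries gave 2 downward after 3 d. For the whole pathway list, members included, 5 entries were upward and 11 downward of 30 after 2 d, and 8 upward and 13 downward of 31 after 3 d. With over 4 FPKM in both groups these counts were 1 and 5 of 17, and 2 and 3 of 14, and with a limit of 2, over as many entries as before, they were 2, 5, 4 and 8. A limit of 0.5 gave 8 upward and 16 downward after 2 d, and 10 upward and 16 downward after 3 d. With FPKM summed over the entries of a locus, 4 of 26 loci were upward and 9 downward after 2 d. After 3 d, 6 of 26 were upward and 11 downward. Among entries before a change point, a setting chosen after seeing the data, the counts were 2 and 1 of 5 after 2 d, and 2 and 1 of 5 after 3 d, so fewer entries were compared under both filters. No paired analysis was possible because the tables hold pooled values only, which also kept leaving out a library and limma from being run. No difference was set against the spread between libraries here, since the values analysed are pooled and the authors' own test columns were not used.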

Other observations

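In the pathway list, 9 loci outside the members are named by 2 entries with the same listed coordinates and unlike values. For OsRR3 (LOC_Os02g58350) the larger entry was 11.3 times the smaller in WD2d, 11.6 times in WD3d and 11.0 times in Control, so both had nearly the same course. For the receptor locus LOC_Os03g50860 the multiples were 12.4 in WD2d, 24.2 in WD3d and 13.2 in Control. For LOC_Os02g41770 they were 2.64, 2.25 and 2.73, and for OsCKX3 (LOC_Os10g34230) 6.04, 3.82 and 6.14, in the same order of groups. Which of the entries holds the reads of the named locus was not tested.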
